A study of Mus musculus with 6 samples.

Results

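The genes described here are the 8 mouse E2F transcription factor genes, E2f1 to E2f8, and the genes of their DP dimer partners, Tfdp1 and Tfdp2. They were chosen by symbol, as 10 of the 27179 identifiers in a table of read counts per gene from mouse embryonic stem cells. All 10 passed the filter on low counts that 14199 genes passed. The lowest count of any of them in a library was 357.

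E2F proteins bind DNA at the promoters of genes for S phase entry, DNA synthesis and mitosis. E2f1 to E2f6 bind as heterodimers with a DP protein, whereas the atypical members E2f7 and E2f8 carry a duplicated DNA-binding domain and bind without DP. E2f1, E2f2 and E2f3 are known mainly as activators that the retinoblastoma protein holds back. E2f4 and E2f5 are known mainly as repressors that act with the pocket proteins p107 and p130 (Rbl1 and Rbl2). E2f6, E2f7 and E2f8 repress without a pocket protein. In embryonic stem cells G1 has been described as short, with the pocket proteins largely phosphorylated by cyclin-dependent kinases. E2F target genes are then transcribed through much of the cycle. This may depend on the culture medium, and neither G1 length nor phosphorylation was measured here.

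Poly(A)-selected RNA was sequenced from 2 kinds of cell with the ES-E14TG2a background, a mouse embryonic stem cell line. Both carried FLAG-tagged Trim71, an RNA-binding TRIM-NHL protein for which E2f7 mRNA has been described as a target. The WT group had the tagged protein without further change, and the R783H group had the hydrocephalus-linked amino-acid change at that residue. Both were grown on gelatin with leukemia inhibitory factor, a GSK3 inhibitor and a MEK inhibitor. Each group had 3 libraries, lettered A, B and C. Whether a letter marks a clone, a culture or a library preparation is not in the labels, so the tests measure only the spread between these libraries, which may be technical.

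Total counts were 27807385 to 29079670 in R783H and 20894277 to 25174121 in WT, so every R783H library was deeper. R783H B stood apart from R783H A and C, with a chi-square per degree of freedom of 11.3 and 12.3 against 2.18 between A and C. Trim71 mRNA measured 144 ± 12.8 CPM in the R783H libraries against 140.5 ± 16.4 in WT (SD, n = 3), and its log2 fold change of 0.03 (SE 0.08) was not called. Under an offset for transcript length and GC content it was -0.26 and called lower, with an adjusted p of 0.00258 (edgeR's quasi-likelihood test). CPM stands for counts divided by the TMM-scaled library size in units of 1e+06. The 10 markers of naive stem cells summed to 7578 to 7717 CPM in R783H and 7684 to 7772 in WT, with 3 called higher and 3 lower. Sums of the 9 fibroblast markers lay between 10.8 and 11.9 CPM in all libraries, with Twist2 at 0. Of the 4 tested, 1 was called higher and 1 lower. Most of the sum was Pdgfrb, at 8.78 to 9.76 CPM in R783H and 6.98 to 8.20 in WT. Thy1 went the other way, at 0.07 to 0.27 CPM in R783H and 1.24 to 1.39 in WT. The 7 primitive endoderm markers summed to 10.3 to 11.1 CPM in R783H against 5.18 to 7.62 in WT. Of the 5 tested, 2 were called higher and 0 lower. Gata4 was the largest part, at 6.17 to 7.19 CPM in R783H and 2.65 to 4.11 in WT. Sox7 went the other way, at 0.07 to 0.14 CPM in R783H and 0.37 to 0.89 in WT. The 5 markers of 2-cell-like cells summed to between 1.71 and 2.30 CPM in all libraries. Of the 3 tested, 0 were called higher and 0 lower. The 7 trophoblast markers summed to 16.8 to 17.5 CPM against 31.6 to 34.6, with Tfap2c and Cdx2 called lower and 2 others higher. Over all tested genes 33.5% were called higher and 30.9% lower. The part of these marker differences in the results was not tested. In bulk RNA, fewer cells of a type and less RNA per cell cannot be told apart.

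E2f1 and Tfdp2 rose in R783H, and E2f3, E2f4, E2f5, E2f7, E2f8 and Tfdp1 fell. Thus 8 of the 10 genes passed an adjusted p of 0.05 in edgeR's quasi-likelihood test and are named as called, 2 higher and 6 lower. Over all tested genes 64.5% were called, 33.5% higher and 30.9% lower, so the number called among the 10 was near the background share. The same 8 genes had CPM values that did not overlap between the groups, which held for 68.1% of all tested genes. The median log2 fold change of the 10 genes was -0.33, beside 0.03 over all tested genes. All changes were under 2-fold. The largest, in Tfdp1, exceeded the absolute fold change of 79.2% of tested genes. Fold changes are log2 of R783H over WT.

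**Figure D1:**
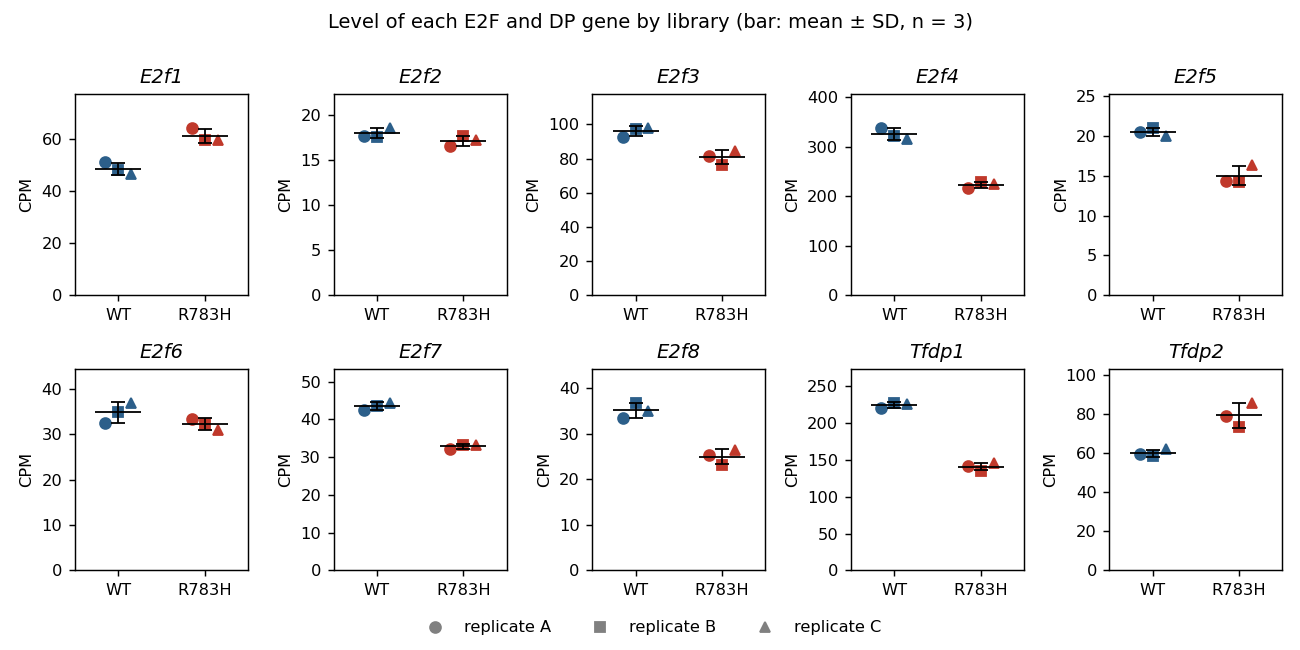
Level of each of the 10 genes in every library, in CPM on a linear axis from 0. Symbols are replicates A, B and C, and horizontal lines with bars are the mean ± SD of 3 libraries. WT and R783H are separate for 8 genes and overlap for E2f2 and E2f6.

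Several E2F genes are themselves known to be under E2F control, so their promoters were searched for the E2F site. RefSeq promoter windows of GRCm38.p6, the same assembly as the mm10 named in the submitters' processing notes, hold 250 bases before and 50 after a start site. They matched 8 of the 10 genes with 12 windows, since some genes have more than 1 start. E2f4 and E2f5 had no entry. The letters searched, on both strands, were TTTCCCGC, TTTGGCGC, TTTCGCGC and TTTGCCGC. A match lay in windows of E2f2, E2f3, E2f7 and Tfdp1, and no match overlapped another. E2f2 and E2f3 each had another window with 0 matches. Its start lies 1 base from the nearest GENCODE start for E2f2 and 0 bases for E2f3. Of all 32851 windows 2.26% held a match. Of these 4 genes 3 were called lower and E2f2 was not called, where 30.9% of all tested genes were lower. Among the genes with a window and no match, E2f8 was also called lower, E2f1 and Tfdp2 were higher and E2f6 was not called. E2f4 and E2f5, without a window, were lower too. The stretches around the match are shown here 5′ to 3′ on the strand of the gene, with the match in capitals:
E2f3: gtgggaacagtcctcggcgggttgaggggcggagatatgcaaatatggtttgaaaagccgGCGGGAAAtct
E2f7: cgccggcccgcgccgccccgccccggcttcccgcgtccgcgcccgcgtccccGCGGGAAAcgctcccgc
Tfdp1: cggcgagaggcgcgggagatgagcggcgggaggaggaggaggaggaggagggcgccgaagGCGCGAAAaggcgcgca
E2f2: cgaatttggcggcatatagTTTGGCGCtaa
The E2f3 stretch is chr13:29986064-29986134 on the minus strand, and its match starts 11 bases before the start site. The E2f7 stretch is chr10:110745189-110745257 on the plus strand, with the match starting 198 bases before the start. The Tfdp1 stretch is chr8:13338648-13338724 on the plus strand, and its match starts 43 bases before the start. In these 3 the site reads on the strand opposite the gene. The E2f2 stretch is chr4:136172294-136172323 on the plus strand, where the match starts at base 40 from the RefSeq start, which lies 120 bases from the nearest GENCODE start. The E2f1 window lies 294 bases from the nearest start site in GENCODE M21, so it does not cover the start that GENCODE gives. No match there, or in the windows of E2f6, E2f8 and Tfdp2, says only that these letters are not in those windows. The same holds for the other windows of E2f2 and E2f3. Among tested genes with a match in a window, 27.4% of 522 were called higher and 38.1% lower. Among the 10244 with a window and no match the shares were 33.7% and 31.4%. These shares are a description and were not tested.

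Of the activators, E2f1 rose, E2f3 fell and E2f2 did not pass the test. E2f1 (Entrez 13555, chr2:154559400-154569892) drives S phase entry and can also induce apoptosis. It was at 64.2, 59.6 and 59.5 CPM in R783H A, B and C, and at 50.9, 48.2 and 46.4 in WT A, B and C. Every R783H library was above every WT library. This is 1.26-fold, or 0.33 (SE 0.06) in log2, at an adjusted p of 2.95e-04 (edgeR's quasi-likelihood test). Genes of like length, within 10% of its longest transcript of 2755 nt, had a median of -0.05 over 1589 genes.

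E2f3 (Entrez 13557, chr13:29906575-29986064) encodes the E2f3a and E2f3b proteins from separate start sites, which counts per gene do not separate. Its levels were 81.5, 76.5 and 84.5 CPM in R783H A, B and C and 92.8, 97.5 and 98.1 in WT A, B and C. No R783H library reached the lowest WT library. At -0.25 (SE 0.05) in log2 this was the smallest of the 8 called changes (adjusted p 0.00129, edgeR's quasi-likelihood test). With an offset for transcript length and GC content it was -0.40. E2f2 (Entrez 242705, chr4:136172274-136196057), an activator that overlaps with E2f1 in function, was at 16.5, 17.7 and 17.2 CPM in R783H A, B and C and 17.7, 17.6 and 18.6 in WT A, B and C. The ranges overlapped. A log2 value of -0.07 (SE 0.07) had an adjusted p of 0.385 (edgeR's quasi-likelihood test).

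Both members known mainly as repressors through pocket proteins fell. Whether they repress or activate in these cells was not measured. E2f4 (Entrez 104394, chr8:105297663-105305370), the main E2F of quiescent cells, was at 216, 228 and 225 CPM in R783H A, B and C. In WT A, B and C it was at 339, 323 and 315 CPM. The gap between the groups, from 228 to 315 CPM, was wider than the range within either. E2f4 fell by 31.5%, or -0.55 (SE 0.04) in log2, at an adjusted p of 1.46e-06 (edgeR's quasi-likelihood test). With the length and GC offset E2f4 was at -0.45, and 1114 genes of like length had a median of -0.13.

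E2f5 (Entrez 13559, chr3:14578602-14606309), which partners mainly with p130, was among the least counted of the 10, at 14.3, 14.2 and 16.3 CPM in R783H A, B and C and 20.5, 20.999 and 19.9 in WT. R783H C was the highest of its group and still below every WT library. In log2 the change was -0.45 (SE 0.07; adjusted p 2.80e-04, edgeR's quasi-likelihood test). For E2f5 the length and GC offset gave -0.40, and 866 genes of like length had a median of -0.14. Part of its exon sequence lies opposite an exon of 1810022K09Rik, which was not matched in the count table, and the use of strand in the authors' counting is not given in the sources used here.

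E2f6 (Entrez 50496, chr12:16810909-16826752) lacks the domain that binds pocket proteins and recruits the polycomb complex PRC1.6. Its levels were 33.5, 32.3 and 30.9 CPM in R783H A, B and C and 32.5, 35.0 and 37.0 in WT A, B and C, and the ranges overlapped. A log2 value of -0.11 (SE 0.06) was not called (adjusted p 0.142, edgeR's quasi-likelihood test). Under the length and GC offset E2f6 was called, at -0.14 and an adjusted p of 0.0483 (edgeR's quasi-likelihood test).

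Both atypical E2Fs fell by like amounts. E2f7 and E2f8 are themselves E2F targets that limit E2f1 transcription late in S phase. E2f7 (Entrez 52679, chr10:110745439-110787384) was at 32.2, 33.2 and 33.1 CPM in R783H A, B and C and at 42.5, 43.5 and 44.4 in WT. Libraries of the same group differed little, and the groups were well apart. E2f7 changed by -0.41 in log2 (SE 0.05; adjusted p 3.83e-05, edgeR's quasi-likelihood test), and -0.57 with the length and GC offset. An antisense gene that shares its exons, 1700020G17Rik, had 1 count over the 6 libraries.

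E2f8 (Entrez 108961, chr7:48866429-48882073) was at 25.4, 23.1 and 26.4 CPM in R783H A, B and C and at 33.5, 36.9 and 35.1 in WT. The highest R783H library was below the lowest WT library. E2f8 changed by -0.49 in log2 (SE 0.07; adjusted p 6.65e-05, edgeR's quasi-likelihood test). Its exons overlap an antisense gene, Gm2788, that was not matched in the count table.

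The DP partners changed in opposite directions. Tfdp1 (Entrez 21781, chr8:13338725-13378448) encodes DP1, the more abundant partner in most cells. It was at 142, 136 and 146 CPM in R783H A, B and C and at 221, 228 and 226 in WT A, B and C. Every R783H library lay well below the WT range. WT exceeded R783H 1.59-fold, a change of -0.67 (SE 0.04) in log2 at an adjusted p of 3.27e-07 (edgeR's quasi-likelihood test). A processed pseudogene, Gm7390, matches 755 nt of its transcript at 99.1% identity, so some of its reads may have been split or dropped in counting.

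Tfdp2 (Entrez 211586, chr9:96196246-96323646) encodes DP2. It was at 79.0, 73.3 and 86.1 CPM in R783H A, B and C and at 59.5, 58.8 and 62.2 in WT A, B and C. The R783H libraries were more spread than those of WT, and all were higher. Tfdp2 rose by 0.40 (SE 0.06) in log2 (adjusted p 1.70e-04, edgeR's quasi-likelihood test). Its longest transcript, 7354 nt, is the longest of the 10 genes, and 695 genes of like length had a median of 0.26. With the length and GC offset the fold change was 0.14, still called, with an adjusted p of 0.00790 (edgeR's quasi-likelihood test).

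**Figure D2:**
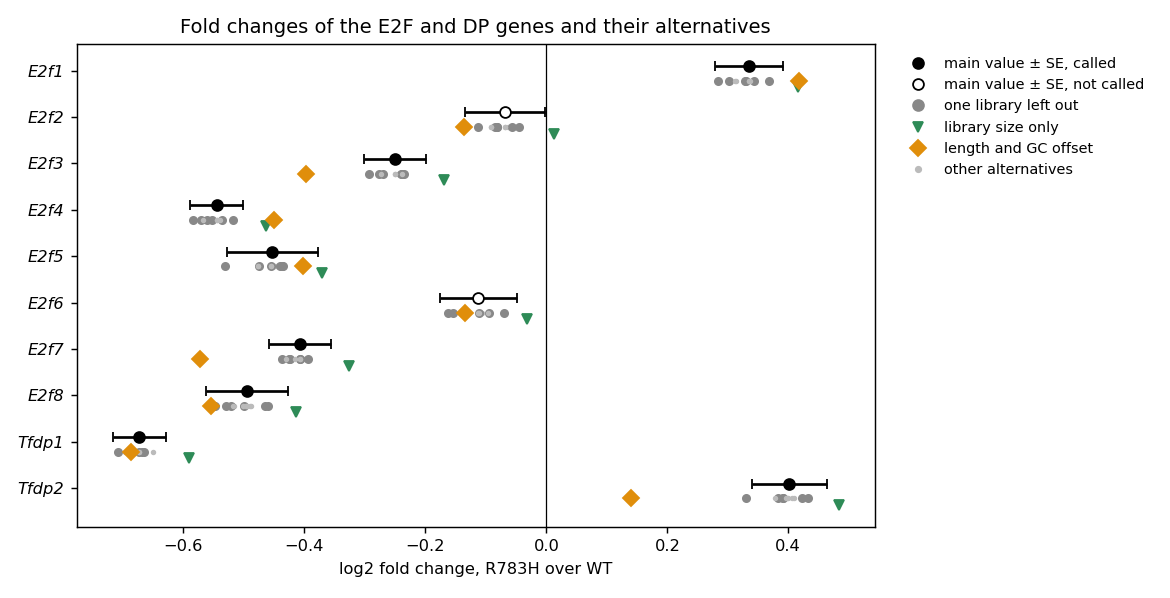
Log2 fold change of each gene, R783H over WT, with black symbols and bars for the value ± SE (filled where called) and coloured or grey symbols for the alternative settings. The alternatives of the 8 called genes keep their sign, and the length and GC offset (orange) brings Tfdp2 from 0.40 to 0.14 and E2f7 from -0.41 to -0.57.

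Levels of different genes were set side by side as CPM per kilobase of the longest annotated transcript. In WT the order was E2f4 at 163 ± 6.05, Tfdp1 at 80.7 ± 1.33, E2f3 at 18.9 ± 0.574, E2f1 at 17.6 ± 0.830, E2f6 at 11.5 ± 0.756, E2f5 at 11.5 ± 0.303, E2f8 at 9.53 ± 0.453, Tfdp2 at 8.18 ± 0.242, E2f7 at 7.95 ± 0.179 and E2f2 at 3.79 ± 0.118 CPM per kb (SD, n = 3). E2f4 and Tfdp1 led in both groups on this scale, per coding length and per union of exons. On the longest-transcript scale E2f3 and E2f1 overlapped in WT, as did E2f6 and E2f5, and Tfdp2 and E2f7. In R783H, E2f4 stood at 112 ± 3.09 and Tfdp1 at 50.6 ± 1.82 CPM per kb. E2f1, at 22.2 ± 0.977, was next and lay above E2f3, at 15.9 ± 0.794, without overlap. Tfdp2 followed at 10.8 ± 0.869 and overlapped E2f6 at 10.7 ± 0.422. E2f5, E2f8, E2f7 and E2f2 came last, from 8.41 ± 0.673 down to 3.62 ± 0.119 CPM per kb. The order below Tfdp1 depends on the length used. Per coding length, E2f3 at 70.1 ± 2.13 lay far above E2f1 at 37.6 ± 1.77 CPM per kb in WT. On that scale E2f3 was also above E2f1 in R783H, at 59.0 ± 2.95 against 47.4 ± 2.09 CPM per kb, so their order there is the reverse. Tfdp2, at 44.98 ± 1.33 CPM per coding kb in WT and 59.4 ± 4.78 in R783H, then stood well above E2f7 and beside E2f6 and E2f3 respectively. E2f6 at 42.7 ± 2.80 and E2f5 at 20.3 ± 0.536 CPM per coding kb were likewise apart in WT.

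Within the family the mix of mRNAs shifted. On the same scale, Tfdp2 made up 17.4%, 17.0% and 18.3% of the summed DP level in R783H A, B and C, and 9.27%, 8.91% and 9.46% in WT A, B and C. The lowest R783H share was well above the highest WT share. These shares depend on the lengths used. Per coding length they were 34.1% ± 1.01 in R783H and 19.7% ± 0.529 in WT, and per union of exons 12.8% ± 0.506 and 6.54% ± 0.204 (SD, n = 3). Because they combine the 2 fold changes already given, they describe the mix and were not tested.

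E2f1 held 12.7%, 11.6% and 11.5% of the summed E2F level in R783H A, B and C and 7.40%, 7.17% and 7.03% in WT, so it was higher in each R783H library. The share of E2f4 was 60.4% ± 1.19 in R783H and 66.9% ± 1.08 in WT (SD, n = 3). The activators E2f1 to E2f3 together held 22.5% ± 0.828 in R783H and 16.5% ± 0.269 in WT. These are shares of a sum that was lower in R783H, so a share can rise without a higher level. E2f3, which fell, held 8.55% ± 0.416 in R783H and 7.73% ± 0.390 in WT. Like the DP shares, they combine fold changes already given and were not tested. The atypical pair held 6.88% ± 0.223 and 7.16% ± 0.356, and these ranges overlapped between the groups. Per coding length they did not, at 5.78% ± 0.133 in R783H and 6.20% ± 0.249 in WT. The other shares also moved with the length used: per coding length E2f1 to E2f3 held 31.6% ± 0.909 and 25.3% ± 0.436, and E2f4 48.2% ± 1.21 and 55.3% ± 1.37. The summed E2F level was 185 ± 2.09 CPM per kb in R783H and 244 ± 5.16 in WT. The summed DP level was 61.4 ± 2.68 and 88.9 ± 1.35 CPM per kb.

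**Figure D3:**
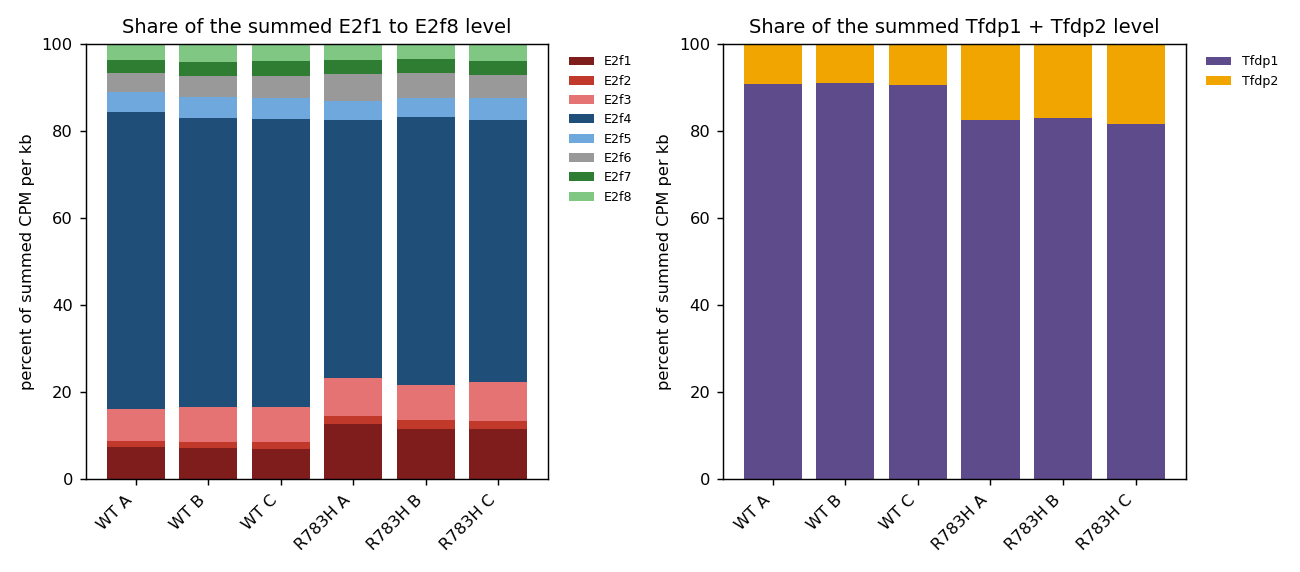
Share of each gene in the summed level of the 8 E2F genes (left) and of the 2 DP genes (right), in percent of CPM per kb of the longest transcript, by library. E2f4 fills 59.2% to 61.6% of the left bars in R783H and 66.1% to 68.1% in WT, and Tfdp2 fills 8.91% to 9.46% of the right bars in WT and 17.0% to 18.3% in R783H.

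Of the 3 pocket proteins, the E2F-binding repressors, Rbl1 and Rbl2 rose. That is 2 of 3 called, near the 64.5% called among all tested genes, of which 33.5% were higher. The median of the 3 was 0.57, or 0.41 with the length and GC offset. Rbl2 (p130) was at 14.1 ± 0.898 CPM in R783H and 8.30 ± 0.610 in WT (SD, n = 3), which is 0.76 (SE 0.09) in log2. Rbl1 (p107), itself an E2F target, changed by 0.57 (SE 0.07), and Rb1 had a value of 0.17 (SE 0.13) that was not called. The partners of E2f4 and E2f5 were thus higher in the libraries in which E2f4 and E2f5 were lower. Rb1 and Rbl2 share exon sequence with neighbouring genes on the opposite strand.

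The cyclins that drive pocket protein phosphorylation fell together. Of 10 G1/S cyclins and kinases 8 were called lower and 0 higher, beside 30.9% and 33.5% of all tested genes, with a median of -0.84. The 8 became 7 without R783H C, WT B or WT C and with library size only, where Cdk6 lost its call. Without R783H B they became 9, since Cdk4 was called lower at -0.08 (adjusted p 0.0394, edgeR's quasi-likelihood test). DESeq2 also called 0 higher, and the highest value of the list, that of Cdk2, had an adjusted p of 0.896 (edgeR's quasi-likelihood test). Ccne1, cyclin E1 and a classic E2F target, went from 305 ± 9.83 CPM in WT to 98.6 ± 4.44 in R783H (SD, n = 3), or -1.63 (SE 0.05) in log2. Ccnd3 changed by -0.999 (SE 0.05), and Ccnd2 by -1.29 (SE 0.23) at group means of 1.56 and 3.83 CPM. The kinases Cdk2 and Cdk4 had values of 0.01 and -0.01 and were not called.

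Of 7 CDK inhibitors, which keep pocket proteins unphosphorylated, 2 were called lower and 3 higher, and the median was 0.24. Together that is 5 of 7, near the 64.5% called among all tested genes. This median was 0.45 without WT A, 0.11 without WT B and 0.15 without R783H B. Cdkn2a, which encodes p16 and p19Arf, was at 17.3 ± 0.618 CPM in WT and rose to 28.9 ± 2.19 (SD, n = 3), or by 0.74 (SE 0.07) in log2. Cdkn1b (p27) changed by 0.59 (SE 0.06) and Cdkn1a (p21) by 0.50 (SE 0.05). Cdkn1c was called lower at group means of 1.35 and 2.32 CPM, and Cdkn2d was lower by -0.56 (SE 0.08).

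Among 46 genes commonly listed as G1/S targets of E2F, 34 were called lower and 6 higher, beside 30.9% and 33.5% of all tested genes, with a median of -0.30. After Ccne1, the largest changes were in Rrm2, the ribonucleotide reductase subunit that supplies DNA precursors, and Ccne2. Rrm2 went from 446 ± 7.67 CPM in WT to 221 ± 11.2 in R783H (SD, n = 3), or by -1.01 (SE 0.05) in log2. Ccne2 changed by -0.82 (SE 0.09). The 6 that rose were Rbl1, Casp8ap2, Pole, Dnmt1, Pola1 and Brca1, named after their values were seen. Without R783H A 3 of these were called higher, and with the length and GC offset 3 of the 46 were.

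Of 24 genes of G2 and mitosis, many of which E2F and the MuvB complex control together, 18 were called lower and 1 higher, with a median of -0.47, where 30.9% of all tested genes were lower and 33.5% higher. Cdc20, the activator of the anaphase-promoting complex, was at 390.2 ± 14.8 CPM in WT and at 152 ± 9.35 in R783H (SD, n = 3), which is -1.36 (SE 0.05) in log2. The kinases Aurka and Plk1 changed by -1.13 (SE 0.05) and -0.87 (SE 0.06). The gene called higher, Cenpe, lost its call without R783H A, R783H C, WT A or WT B and with the length and GC offset. With that offset the value of Cenpe was 0.04, in place of 0.33 (SE 0.11). The number of the 24 called lower was 22 with the offset and 16 with library size only.

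**Figure D4:**
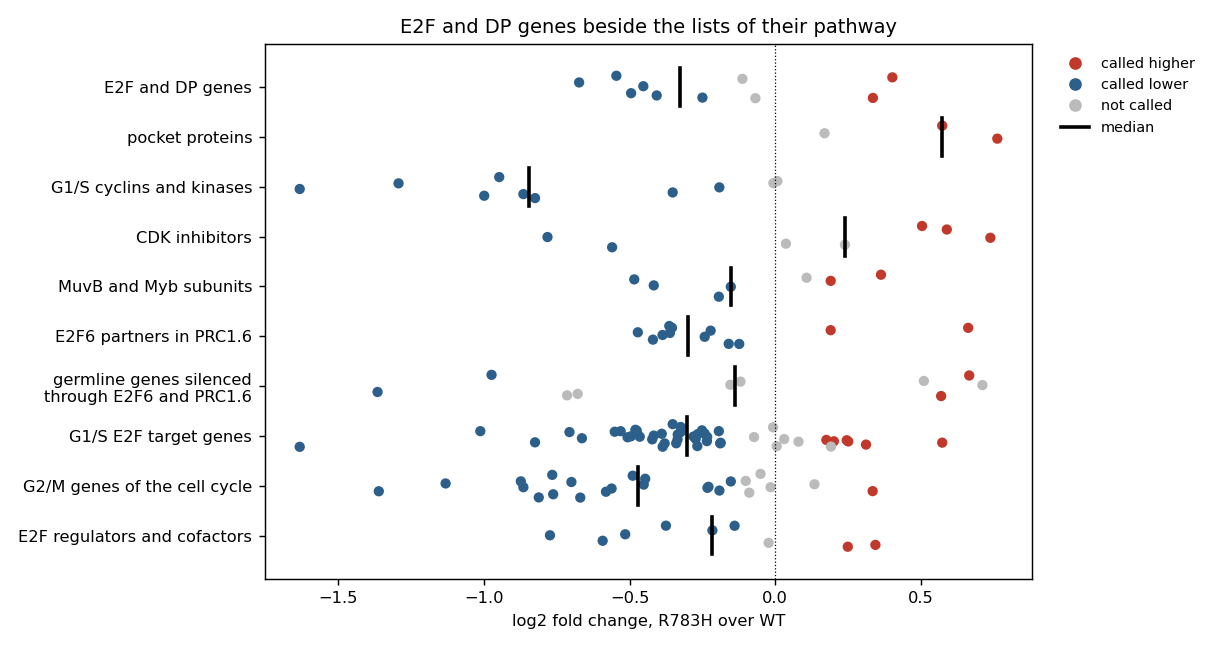
Log2 fold change, R783H over WT, of the E2F and DP genes and of 9 lists of their pathway. Points are genes, coloured by call, and black bars are medians, which lie at -0.33 for the E2F and DP genes, -0.84 for the cyclins and kinases and 0.57 for the pocket proteins.

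MuvB is the core that joins E2f4 with p107 or p130 in the DREAM repressor and later joins B-Myb and FoxM1. Of 7 such genes 4 were called lower and 2 higher, and their median was -0.15, or -0.07 with library size only. Of all tested genes 30.9% were lower and 33.5% higher. Lin52 changed by 0.36 (SE 0.10), Lin37 by -0.48 (SE 0.09) and Rbbp4, a histone chaperone shared with other complexes, by -0.42 (SE 0.05). The other higher gene, Lin9, kept its call without R783H B or WT C and lost it without any one of the other 4 libraries, and with RLE factors, DESeq2 or equal depth. Scaling by library size alone left 2 called lower.

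All 12 tested partners of E2f6 in PRC1.6 were called, 10 lower and 2 higher, with a median of -0.30, beside 64.5% called among all tested genes. Hdac1, Hdac2 or both lost their call with library size only, with either other filter and without any one library except R783H B, which left 8 or 9 lower. Mga, the DNA-binding scaffold of the complex, was at 228 ± 20.6 CPM in WT and rose to 361 ± 51.1 (SD, n = 3), or by 0.66 (SE 0.09) in log2. Yaf2 changed by -0.47 (SE 0.13) and Ring1 by -0.42 (SE 0.11). The other higher gene, Rybp, was not called without R783H A, R783H C, WT A or WT B, nor with the length and GC offset. Of 11 germline genes that E2f6 and PRC1.6 are known to silence, 10 were tested, 2 were called higher and 2 lower, a smaller share than the 64.5% of all tested genes. Dazl (0.67, SE 0.16) and Stag3 (0.57, SE 0.05) were higher, and Ddx4 (-1.36, SE 0.12) and Mov10l1 (-0.97, SE 0.15) lower. Dazl, Ddx4 and Mov10l1 had group means of 8.45 CPM or less. Slc25a31, Tuba3b, Majin and Taf7l, which were not called, had group means of 0.27 to 0.67 CPM. Their SEs were 0.31 to 0.41, so the lack of a call there does not show a lack of change. Stag3, a meiotic cohesin subunit, was at 87.1 ± 3.05 CPM in R783H and 58.7 ± 0.979 in WT (SD, n = 3).

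Of 9 other regulators and cofactors of E2F proteins 6 were called lower and 2 higher, against 30.9% and 33.5% of all tested genes. Their median was -0.22, or -0.13 with library size only and -0.34 with the length and GC offset. Ccnf (cyclin F), which directs degradation of E2F activators, was at 398 ± 19.7 CPM in WT and at 233 ± 15.2 in R783H (SD, n = 3), which is -0.77 (SE 0.06) in log2. Fzr1, an activator of the anaphase-promoting complex, changed by -0.59 (SE 0.06) and Skp2, a ubiquitin ligase subunit and E2F target, by -0.51 (SE 0.05). The higher genes were Trrap and Mdm2. Mdm2 lost its call without R783H A, R783H C or WT B, and Trrap had a value of -0.02 with the length and GC offset. These lists share genes with one another, such as Ccne1, Ccna2, Rbl1 and Mybl2, and members named beyond the 3 largest changes of a list were chosen after their values were seen.

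Of the 121 genes of all these lists, the ones whose log2 CPM followed that of Tfdp1 most closely over the 6 libraries were Ccna2 (Pearson r 0.999), Ezh2 (0.997) and Pcna (0.996). These correlations hold the difference between the 2 groups and are given as a description. Ccna2 encodes cyclin A2 and changed by -0.86. Pcna encodes the sliding clamp of DNA polymerase and changed by -0.66, close to the -0.67 of Tfdp1.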

How the data were processed

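RNA was measured in 6 libraries, grouped by their titles. The authors deposited raw read counts per Entrez gene, whole numbers not normalized, with 1 column per library and 0 columns unassigned. CASAVA 1.4, HISAT2, SAMtools and mm10 are named in the submitters' processing notes; the counting tool, annotation and strand setting are not given in the sources used here. RefSeq's gene table for GRCm38.p6 gave symbols for 25275 identifiers and the coordinates. GENCODE M21 gave transcript lengths, GC content and exon overlaps, and BLAST 2.17.0 gave near-identical copies.

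Genes were kept with filterByExpr (minimum count 10, minimum total 15), scaled with TMM and tested with group as the single term by edgeR 4.0.16's quasi-likelihood test in R 4.3.3, with Benjamini-Hochberg adjustment over 14199 genes and calls at 0.05. SE is the fold change divided by the square root of F. The steps were tested on simulated counts, drawn with the same dispersion for all genes, which real genes need not share. Of 100 simulated 2-fold changes 89 were called, and of 100 simulated 1.5-fold changes 84. Of the unchanged genes 8 were called. Alternatives used DESeq2 1.42.0, limma 3.58.1 (voom), RLE factors, library size alone, other filters, each library left out, a replicate block, equal depth, and an offset from smooth trends with length and GC content (mgcv 1.9.3) over 13067 genes. Total counts of 20894277 to 29079670 put 3 counts at 0.103 to 0.144 CPM; such limits cover counting error only.

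The members and lists were chosen with earlier results of these data known. Named genes are the 10 members, Trim71, the pocket proteins, up to 3 called genes with the largest change per list, and the 3 list genes most like the called member with the largest change at 5 CPM or more. Ccnd2, Ccnd3, Ccne2, Ccna2, Ccnf, Cdc20, Cdkn1a, Cdkn1c, Ezh2, Fzr1, Lin37, Plk1, Pole, Rbbp4, Foxm1 and Trim71 share exon sequence with another gene. So do Cdk2, Cdk4, Cdk6 and Twist2. Rrm2, Pcna, Rybp, Mybl2, Cenpe, Mga and Hdac1 have near-identical stretches elsewhere. The counts of all these genes are uncertain to that extent.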

Additional observations from a re-analysis of the deposited data

How the results depend on the processing

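The 8 called E2F and DP genes kept their direction and call under all 15 alternatives. With each library left out, fold changes ran from 0.28 to 0.37 for E2f1, 0.33 to 0.43 for Tfdp2, -0.29 to -0.24 for E2f3, -0.58 to -0.52 for E2f4, -0.53 to -0.43 for E2f5, -0.44 to -0.39 for E2f7, -0.55 to -0.46 for E2f8 and -0.71 to -0.66 for Tfdp1. E2f2 was 0.0131 with library size only, where its sign turned. With the length and GC offset E2f6 passed the threshold (-0.14). Trim71 ran from -0.0219 to 0.13 with a library left out, its sign turning without R783H A, R783H C, WT A or WT B, and was -0.26 with the length and GC offset (adjusted p 0.00258, edgeR's quasi-likelihood test).

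The number of all genes called lay between 8161 and 9882 with a library left out. Deviations of libraries with the same letter correlated at -0.07, 0.00682 and 0.09, and those with unlike letters at -0.13 to 0.13. With 3 libraries per group such values cannot decide whether the letters pair the samples. The replicate block gave 9260 called genes in place of 9152 and changed no call of the 10 genes.

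Counts of genes called higher moved in several lists, and stayed at 2, 3 and 2 for the pocket proteins, CDK inhibitors and germline genes under all 15 alternatives. For MuvB genes, 2 became 1 with RLE size factors, 1 with DESeq2 and 1 at equal depth, and ran from 1 to 3 with a library left out; those called lower became 2 with library size only. PRC1.6 partners called higher became 1 with the length and GC offset and 1 to 2 with a library left out. G1/S targets called higher became 3 with that offset and 3 to 7 with a library left out. G2/M genes called higher became 2 with library size only, 0 with the offset, and 0 to 2 with a library left out. E2F regulators called higher became 1 with the offset and 1 to 2 with a library left out. Tfdp2's share of the DP level was 34.1% in R783H and 19.7% in WT per coding length, and 12.8% and 6.54% per union of exons. Medians of lists moved beyond the spread between libraries in 25 of 135 cases and turned sign in 0. Trim71 aside, the list genes named by the rule kept direction and call in all 390 cases. Genes named after their values were seen did not: besides those in the report, Pola1, Pole, Brca1 and Casp8ap2 lost their call with the length and GC offset, where Brca1 turned to -0.05. Pola1 also lost its call without R783H A, R783H C, WT A or WT B. Casp8ap2 lost it without R783H A, R783H C or WT A, and Brca1 without R783H A or WT B. The causes of these shifts were not tested.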
